A study of Mus musculus with 2 samples.

Results

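The genes described here carry the signal of leukaemia inhibitory factor (LIF) and of its relatives in the interleukin-6 (IL6) family. They are the ligand genes Lif, Il6, Il11 and Clcf1, the receptor genes Lifr, Il6st and Osmr, the kinase gene Jak1, the transcription factor gene Stat3 and the inhibitor gene Socs3. Members were chosen by name, and every probe whose accession was paired with one of the 10 symbols was taken. This gave 13 probes of 55681 that are not controls, for 10 genes of 20284 with a named probe. The series concerns raised HDAC6, a mainly cytoplasmic deacetylase, and its effect on the transcripts of mouse embryonic stem cells (ESCs), which are pluripotent. On each of 2 Agilent two-colour arrays, RNA of wild-type (WT) ESCs carried the dye Cy3 and RNA of ESCs labelled HDAC6 overexpression carried Cy5. Both kinds of cell were of the B6C3F1 strain at passage 26 and were grown with LIF on growth-arrested mouse embryonic fibroblasts (feeders), so added LIF and feeder cells are common to both groups. The labels give neither the vector of the overexpression nor whether it is 1 clone. They call the arrays biological replicates 1 and 2. Nothing says that they are separate cultures, and p-values then measure only the spread between these arrays, which may be technical.

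LIF keeps mouse ESCs undifferentiated. It binds the LIF receptor, which pairs with the shared signalling subunit encoded by Il6st, and the pair activates JAK kinases, which phosphorylate STAT3. STAT3 enters the nucleus and switches on transcription factor genes such as Klf4 and Tfcp2l1, and also Socs3, whose protein binds the shared subunit and JAK and shuts the signal down. Other family ligands use the same subunit with their own partner receptors. Fibroblasts are a known source of LIF and IL6 in feeder cultures.

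All 13 probes were well above background in both channels of both arrays, so every member had a measured ratio. Values are processed signals in the scanner's intensity units, and ratios are log2 of overexpression over WT, with the mean over both arrays ± SD (n = 2). The comparison is made within an array, so signals set side by side across arrays are description only. Both arrays have the same dye orientation, so a dye effect cannot be told apart from the comparison. The RNA is of a bulk culture, in which fewer cells of a type and less RNA per cell cannot be told apart. Hdac6 itself had signals of 16389 and 17806 in WT and 18275 and 17344 in the overexpression channel by its brighter probe. Its log2 ratio was 0.06 ± 0.14 (limma adjusted p = 0.67) by that probe and 0.09 ± 0.13 by the other. By these values neither probe passed the test as higher in the channel labelled overexpression. Whether the probes lie within the introduced gene is unknown here. The words overexpression channel below name the RNA by its label only. With normexp and median centring in place of an intensity-dependent dye correction the brighter probe had 0.52 (limma adjusted p = 0.00078; 0.00078 to 0.81 over 10 settings).

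All 4 ligand genes and the receptor gene Osmr were higher in the overexpression channel. Socs3 was lower, and Lifr, Il6st, Jak1 and Stat3 did not pass the test. The members thus counted 5 higher and 1 lower of 10, at a limma adjusted p under 0.05. Over all 16079 genes tested, each read through its brightest probe, 19.4% were higher and 27.7% lower at that threshold. These are 3116 and 4454 genes, a split that median centring without loess moved to 4827 higher and 4773 lower. The members' share of lower genes was therefore below the share over all genes and their share of higher genes above it. The median log2 ratio of the members was 0.24, against -0.06 over all genes. A change of at least 2-fold upward on both arrays was met by Il6 and Osmr, 2 of 10, against 3.03% of all genes. Replicate 2 alone placed 4 of the members past 2-fold upward, against 893 of the 16079 genes. Replicate 1 alone placed 2 of the members there, against 566 genes.

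**Figure D1:**
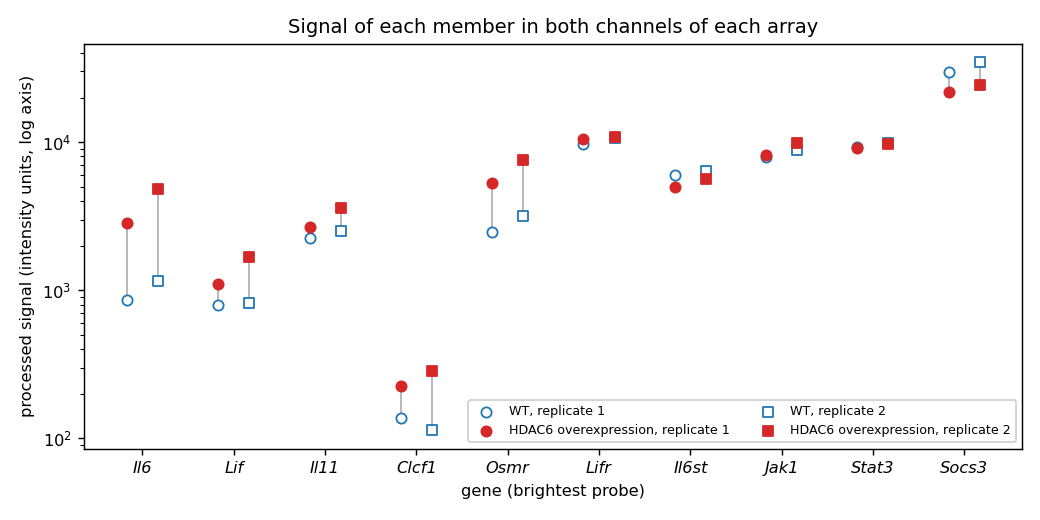
Processed signal (log axis) of the brightest probe of each member gene, with open symbols for WT and filled symbols for HDAC6 overexpression, circles for replicate 1 and squares for replicate 2. Filled symbols lie above open ones for Il6, Lif, Il11, Clcf1 and Osmr and below them for Socs3, which turned to 0.29 (log2) with median centring and no loess. Signals of different probes are not comparable with each other.

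Il6, the gene of the founding family cytokine, changed most among the members. Its probe, A_55_P1997756, had WT signals of 853 in replicate 1 and 1155 in replicate 2, and overexpression signals of 2860 and 4791. Both overexpression values lay above both WT values, by 3.35-fold on one array and 4.15-fold on the other. The mean ratio was 3.73-fold (log2 1.90 ± 0.22, limma adjusted p = 0.00034), above that of 99.1% of the genes tested. Its probe is spotted 2 times on each array, and the SD between the copies was 0.073 in replicate 1 and 0.01 in replicate 2 on the log2 scale, less than the SD between arrays.

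Clcf1, which encodes a cytokine that signals through the ciliary neurotrophic factor receptor, was higher as well. Its probe A_51_P102421 had WT signals of 138 and 113 and overexpression signals of 224 and 284. The ratio of 2.02-fold (log2 1.01 ± 0.44, limma adjusted p = 0.0053) was uneven between arrays, at 0.70 and 1.33. With normexp and loess on the raw signals the value was smaller, at 0.64 (limma adjusted p = 0.0013; 0.00026 to 0.012 over 10 settings).

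Lif had WT signals of 789 and 817 and overexpression signals of 1107 and 1669 (probe A_66_P134488). The WT signals were thus close between arrays and the overexpression signals apart. The log2 ratio was 0.49 and 1.03, a mean of 1.69-fold (0.76 ± 0.38, limma adjusted p = 0.01). Il11, the gene of a cytokine with its own receptor subunit, had WT signals of 2237 and 2504 and overexpression signals of 2655 and 3596 (probe A_51_P267783). Its ratio was the smallest of the ligands, at 1.31-fold (log2 0.38 ± 0.19, limma adjusted p = 0.038). That call was lost in a limma test of a change beyond 1.2-fold (added after the data were seen) and when dim probes were kept in the fit (limma adjusted p = 0.074; 0.0072 to 0.074 over 10 settings).

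**Figure D2:**
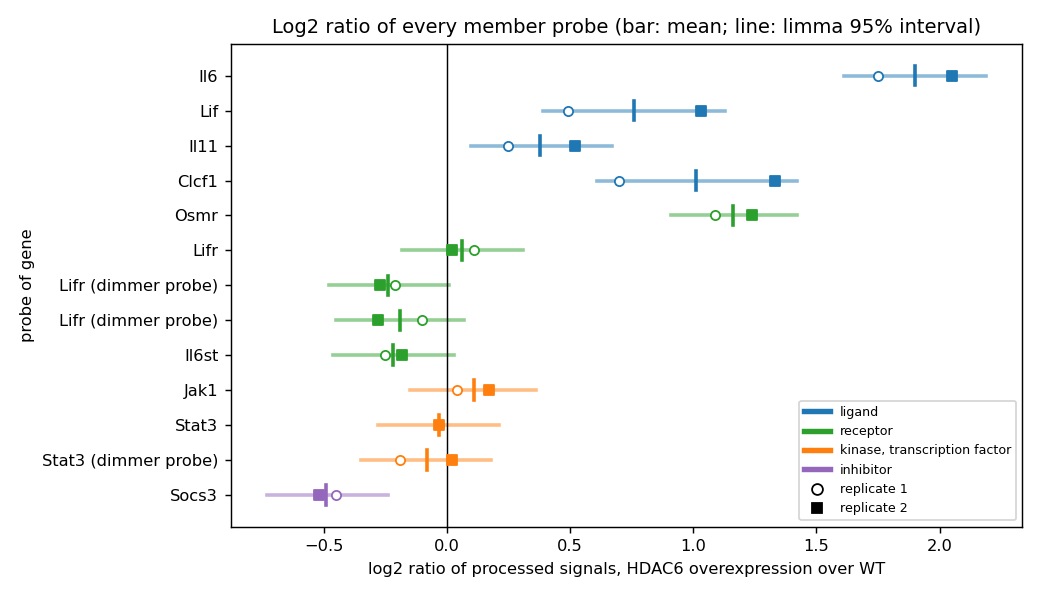
Log2 ratio of processed signals (overexpression over WT) for all 13 member probes, open circles for replicate 1, filled squares for replicate 2, a vertical bar for the mean and a line for the limma 95% interval. The intervals of the 4 ligand genes and Osmr lie above 0, that of Socs3 lies below 0 (0.29 with median centring and no loess), and the other probes include 0 or end at 0.01 above it.

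The promoters of these genes are shown because the ligand genes and Osmr moved in one direction and Socs3 in the other. RefSeq windows from 250 bases before to 50 bases after the start site (assembly GRCm38.p6) were found for 9 of the 10 members, in 11 windows; Clcf1 has none and was not searched. They were searched on both strands for TGANTCA, the binding motif of AP-1 factors, TTCNNNGAA, that of STAT factors, and GGGNNTTTC, the first 9 letters of one form of the NF-kB motif. The letters were chosen with the expression values known. In the sequences below, which run 5′ to 3′ along the gene, capitals mark the matches.
Il6, chr5:30012864-30013163, + strand: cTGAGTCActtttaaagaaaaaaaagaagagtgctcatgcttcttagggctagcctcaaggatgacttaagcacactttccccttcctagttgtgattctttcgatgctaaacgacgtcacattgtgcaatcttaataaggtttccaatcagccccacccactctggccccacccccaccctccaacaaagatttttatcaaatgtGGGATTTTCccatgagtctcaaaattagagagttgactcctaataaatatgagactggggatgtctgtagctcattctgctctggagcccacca
Il11, chr7:4778092-4778391, - strand: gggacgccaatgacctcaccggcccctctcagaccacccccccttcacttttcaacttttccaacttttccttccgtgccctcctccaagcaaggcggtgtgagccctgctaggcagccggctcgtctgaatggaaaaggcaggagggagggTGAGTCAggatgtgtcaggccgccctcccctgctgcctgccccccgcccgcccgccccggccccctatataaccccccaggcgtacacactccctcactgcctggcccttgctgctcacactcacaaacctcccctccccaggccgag
Lif, chr11:4257318-4257617, + strand: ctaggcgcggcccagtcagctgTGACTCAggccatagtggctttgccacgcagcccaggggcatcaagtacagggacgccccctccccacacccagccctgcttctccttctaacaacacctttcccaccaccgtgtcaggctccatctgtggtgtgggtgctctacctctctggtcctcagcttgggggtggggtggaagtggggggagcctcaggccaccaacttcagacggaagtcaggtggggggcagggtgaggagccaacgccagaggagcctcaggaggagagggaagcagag
Osmr, chr15:6874264-6874563, - strand: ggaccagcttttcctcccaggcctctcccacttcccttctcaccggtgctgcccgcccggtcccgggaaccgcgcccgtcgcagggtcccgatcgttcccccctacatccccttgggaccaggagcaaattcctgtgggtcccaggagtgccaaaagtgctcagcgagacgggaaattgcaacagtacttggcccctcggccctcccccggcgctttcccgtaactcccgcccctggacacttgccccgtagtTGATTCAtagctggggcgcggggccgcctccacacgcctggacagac
Socs3, chr11:117969317-117969616, - strand: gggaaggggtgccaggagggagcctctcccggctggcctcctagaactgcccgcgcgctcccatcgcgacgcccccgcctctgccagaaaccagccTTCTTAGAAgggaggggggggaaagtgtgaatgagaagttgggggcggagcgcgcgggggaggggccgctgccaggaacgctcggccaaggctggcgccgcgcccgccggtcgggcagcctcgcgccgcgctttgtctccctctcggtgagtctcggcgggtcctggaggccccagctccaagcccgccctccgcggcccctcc
The AP-1 letters were present in windows of 4 members, Il6, Il11, Lif and Osmr, which are the 4 higher genes with a window. They occur in 7.81% of all 32851 promoter windows. The match is TGAGTCA in Il6 and Il11, beginning 249 and 98 bases before the start site, TGACTCA in Lif, 228 bases before it, and TGATTCA in Osmr, 3 bases after it. Il6 also holds GGGATTTTC, 44 bases before the start site, and of the 9 members searched no other held the NF-kB letters, which occur in 4.36% of windows. Of the same 9 members, Socs3 alone held the STAT letters, as TTCTTAGAA beginning 154 bases before the start site, and occur in 8.3% of windows. A second Il11 window held none of these letters. A match is a description of the sequence and shows no binding, and a window without one says only that these letters are not in it.

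Of the 3 receptor genes, Osmr was higher and the other two did not pass the test. Osmr, whose protein joins the shared subunit to bind oncostatin M, had WT signals of 2469 and 3191 and overexpression signals of 5262 and 7516 (probe A_51_P319460). Both overexpression values lay above both WT values, at 2.13-fold and 2.36-fold. The mean log2 ratio of 1.16 ± 0.10 (limma adjusted p = 0.00093) corresponds to 2.24-fold and lay above that of 96.9% of genes. It ranged from 1.09 to 1.16 over the settings tried.

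Lifr, the receptor that defines the response to LIF, is read by 3 probes, none of which passed the test. The brightest, A_55_P2159259, had WT signals of 9682 and 10696 and overexpression signals of 10422 and 10863. Its log2 ratio was 0.11 and 0.02 on the single arrays, with a mean of 0.06 ± 0.059 (95% interval -0.18 to 0.31, limma adjusted p = 0.62). The dimmer probes lay on the other side of 0, A_51_P113182 at -0.24 ± 0.042 (limma adjusted p = 0.1) and A_55_P2159264 at -0.19 ± 0.13 (limma adjusted p = 0.19). The last is listed under another Lifr transcript than the first pair, yet its value was close to that of A_51_P113182. With median centring and no loess the brightest probe had 0.24 (limma adjusted p = 0.047; 0.047 to 1 over 10 settings) and the dimmer probes -0.32 and -0.29, each past the threshold, so the probes disagreed in direction there.

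Il6st, the gene of the shared signalling subunit, had WT signals of 5979 and 6373 and overexpression signals of 5013 and 5625 (probe A_51_P473888). Both overexpression values lay below both WT values, but the log2 ratio of -0.22 ± 0.053 did not pass the test (95% interval -0.46 to 0.03, limma adjusted p = 0.12). The interval leaves out a fall larger than 0.46 on the log2 scale and any rise above 0.03, given the spread between these arrays.

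Jak1 and Stat3 did not pass the test either. Jak1, the main kinase bound to the shared subunit, had WT signals of 7973 and 8834 and overexpression signals of 8219 and 9913 (probe A_52_P106463). Its log2 ratio was 0.04 and 0.17 on the single arrays, with a mean of 0.11 ± 0.087 (95% interval -0.15 to 0.36, limma adjusted p = 0.43). Stat3 was the most closely repeated member, since its brighter probe, A_51_P201480, is spotted 10 times on each array. The WT signals were 9275 and 9873 and the overexpression signals 9058 and 9678, a log2 ratio of -0.03 on both arrays. The SD between the 10 copies was 0.022 and 0.032, and the 95% interval ran from -0.28 to 0.21 (limma adjusted p = 0.81). The other Stat3 probe, A_55_P1991219, had -0.08 ± 0.15 (limma adjusted p = 0.56).

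Socs3, the feedback inhibitor of the pathway, was the only member called lower. Its probe A_51_P474459 had WT signals of 29661 and 34541 and overexpression signals of 21671 and 24118. Both overexpression values lay below both WT values, and the ratio was 0.731 on one array and 0.698 on the other. The log2 ratio was -0.49 ± 0.046 (limma adjusted p = 0.012), a fall of 1.40-fold. This direction depended on the dye correction: with normexp and median centring but no loess the value was 0.29 (limma adjusted p = 0.025), and with normexp and loess it was -0.32 (limma adjusted p = 0.015). Over 10 settings the limma adjusted p of Socs3 ran from 0.0002 to 0.028. The call was also lost in the test against a 1.2-fold change. The correction made by Feature Extraction itself changed with brightness, from a median log2 shift of -0.14 and -0.27 (replicates 1 and 2) in the lowest decile of WT signals to -0.68 and -0.73 in the highest decile.

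Lif, Stat3 and Socs3 lie on chromosome 11, whose genes were lower as a whole. Over 1297 genes of that chromosome well above background in both channels, the median was -0.51 on the log2 scale (-0.52 and -0.50 on the single arrays), against -0.03 over 14125 genes of the other chromosomes. Among those others, chromosome 1 had a median of 0.25 and chromosome 8 one of -0.25. Socs3 lay 0.02 above the median of chromosome 11, with 51.4% of that chromosome's genes below it. Stat3 lay 0.48 above the median, higher than 79.8% of the chromosome's genes. Lif lay 1.27 above it, higher than 96.6%. Without these 3 genes, 4 of 7 members were higher, 0 lower and 3 not called by limma, with a median of 0.38. Over all genes 19.4% were higher and 27.7% lower. At an unadjusted p under 0.05 or with normexp and loess 0 of the 7 were lower. Socs3 was the only member lower in each of these readings, so leaving it out fixed the 0 lower in advance. The part of the chromosome's shift in the values of Lif, Stat3 and Socs3 was not tested.

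**Figure D3:**
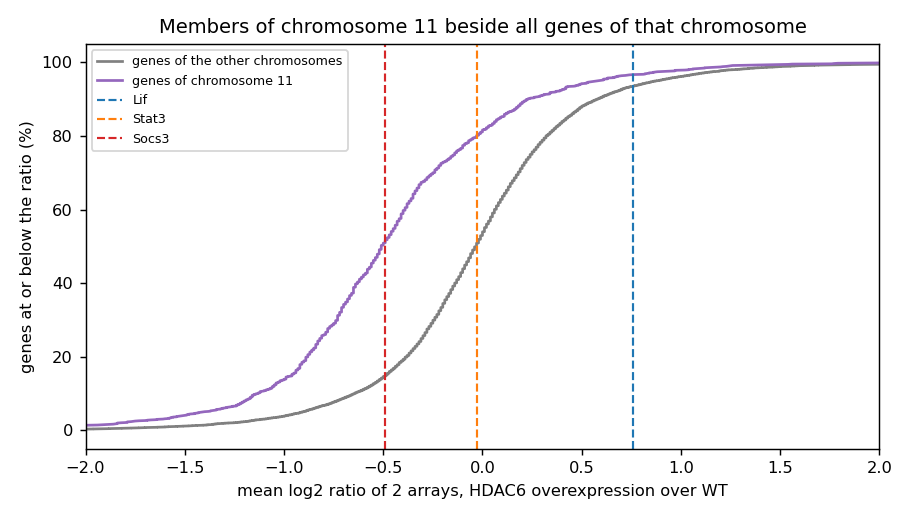
Cumulative share of genes (%) by mean log2 ratio for chromosome 11 and for the other chromosomes, with dashed lines at Lif, Stat3 and Socs3. The chromosome 11 curve is shifted to lower ratios (median -0.51 against -0.03), and Socs3 sits at its middle while Lif sits near its upper end; Socs3 had 0.29 with median centring and no loess.

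The rest of the pathway moved in both directions. In 4 lists of other ligand, receptor, signalling and inhibitor genes, 35 of 40 genes were measured, of which 6 were higher, 6 lower and 23 not called, with a median log2 ratio of -0.01. With normexp and loess, with an intensity trend in the variance, or with normexp and median centring but no loess, the lower count was 10. Their shares of calls in both directions were thus near or below those over all genes. Of 6 other ligand genes, Osm, which encodes oncostatin M, the ligand of Osmr, was lower. It had WT signals of 169 and 168 and overexpression signals of 47.1 and 53.5, a log2 ratio of -1.75 ± 0.13 (limma adjusted p = 0.00032), and -1.01 with normexp and loess. The ligand and its receptor gene thus had ratios of opposite sign. Osm also lies on chromosome 11. Il27 was called higher at 0.48 ± 0.19 (limma adjusted p = 0.019), but on signals of 53.7 to 82.3, and with normexp and loess it had 0.03 and no call (limma adjusted p = 0.79; 0.01 to 0.83 over 10 settings). Cntf, Ctf1 and Ebi3 lay between -0.31 and 0.05 by their brightest probes and did not pass.

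Among 4 other receptor genes, Il6ra, the receptor subunit that binds IL6, was higher. It had WT signals of 1864 and 1968 and overexpression signals of 2988 and 4295, a ratio of 1.87-fold (log2 0.90 ± 0.31, limma adjusted p = 0.0043). Cntfr, the receptor subunit for ciliary neurotrophic factor, was lower at -0.99 ± 0.06 (limma adjusted p = 0.0013), with WT signals of 2709 and 3140 against 1401 and 1531. Il27ra was lower too, at -0.89 ± 0.071 (limma adjusted p = 0.0018), and lies on chromosome 8, whose median was -0.25. Il6 and its binding subunit Il6ra were therefore both higher, whereas Clcf1 was higher and Cntfr, through which its product signals, lower.

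Of 13 other kinase, STAT and adaptor genes, 1 was higher, 1 lower and 11 not called. Stat5b, another STAT and a gene of chromosome 11, was lower at -0.84 ± 0.064 (limma adjusted p = 0.0021). Against 19.4% higher and 27.7% lower over all genes, 5 of 9 blood cell markers measured were higher and 1 lower. Their summed signal was 29183 and 48485 in WT and 40947 and 51185 in the overexpression channel. Most of each sum came from 1 probe, the brightest of the integrin gene Itgam. It had 22833 and 40702 in WT and 30298 and 36796 in the overexpression channel (log2 ratio 0.13 ± 0.39, not called). With normexp and loess that probe had 0.30 (limma adjusted p = 0.045). A dimmer Itgam probe was called higher, at 0.96 and 0.50 on the single arrays (mean 0.73, limma adjusted p = 0.0091). The myeloid genes Csf1r, Tyrobp and Fcer1g had 1.23 ± 0.036, 1.1 ± 0.18 and 0.71 ± 0.084. The pan-leukocyte gene Ptprc had signals of 82.8 to 110 and 0.30 ± 0.15, which did not pass. The part of blood cell RNA in the values of the members was not tested.

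Of 12 other inhibitor genes, 3 were higher and 2 lower. Socs1, the closest relative of Socs3 in the group, was lower by 2.01-fold, with WT signals of 4964 and 5852 and overexpression signals of 2480 and 2900 (log2 -1.01 ± 0.0083, limma adjusted p = 0.0012). Its direction and call held in all 10 settings, whereas the direction of Socs3 turned with median centring and no loess. Socs5 was higher at 0.70 ± 0.13 (limma adjusted p = 0.0043). Cish at 0.34 ± 0.052 and the phosphatase gene Ptpn2 at -0.39 ± 0.11 were past the threshold here and not when dim probes were kept or with median centring. The other probes of Ptpn2 had -0.35 and -0.08.

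Genes known to respond to LIF and STAT3 were higher more often than lower. Of 18 measured, 10 were higher, 0 lower and 8 not called by limma (0 lower also at an unadjusted p under 0.05 and with normexp and loess). Over all genes 19.4% were higher and 27.7% lower. The median log2 ratio of these targets was 0.47, against -0.06 over all genes. The lowest ratio in the list was that of Mcl1, at -0.11 ± 0.0083 (limma adjusted p = 0.38). Tfcp2l1, a transcription factor gene of the naive pluripotent state, had WT signals of 7882 and 7951 and overexpression signals of 20837 and 24107, which is 2.83-fold (log2 1.5 ± 0.14, limma adjusted p = 0.00051). Klf4 had 0.97 ± 0.017 (limma adjusted p = 0.0013), the cyclin gene Ccnd1 1.06 ± 0.22 (limma adjusted p = 0.0017) and Myc 0.93 ± 0.36 (limma adjusted p = 0.0047). Socs3, itself a STAT3 target, had a ratio of the opposite sign to Tfcp2l1, Klf4, Ccnd1 and Myc, except with median centring and no loess. Some targets that were not called, Mcl1 among them, also lay below 0. Unlike the targets named here, Socs3 lies on chromosome 11, whose median was -0.51. Tfcp2l1 lies on chromosome 1, whose median was 0.25. The part of these shifts in this contrast was not tested.

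**Figure D4:**
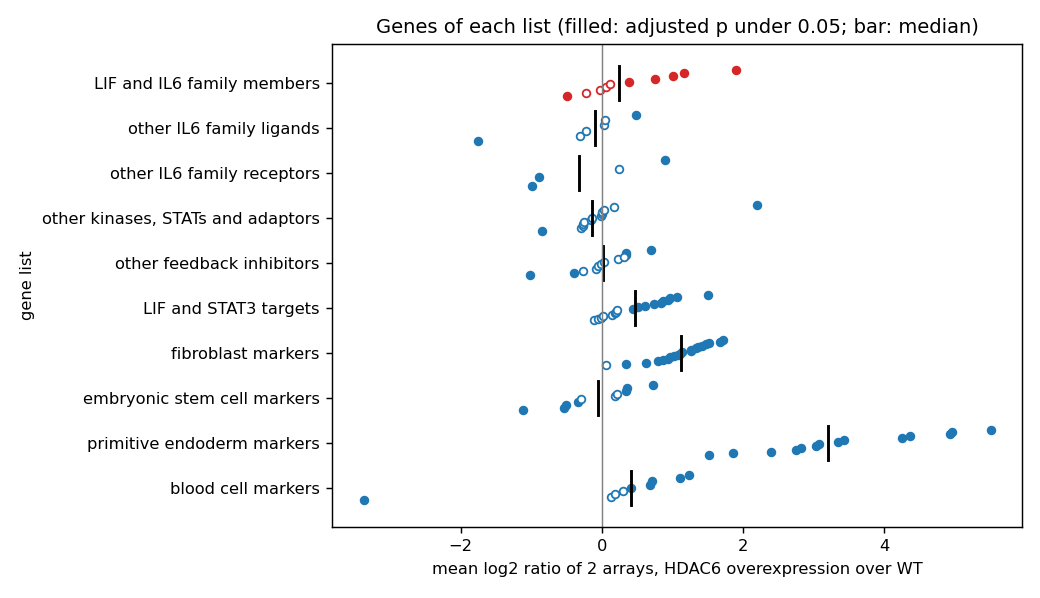
Mean log2 ratio (overexpression over WT) of every measured gene of each list, filled where the limma adjusted p is under 0.05 and open otherwise, with a bar at the list's median. The members have a median of 0.24, the LIF and STAT3 targets 0.47, the fibroblast markers 1.13 and the primitive endoderm markers 3.21; Socs3 among the members had 0.29 with median centring and no loess.

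Markers of other cell types were read in the same way, beside 19.4% higher and 27.7% lower over all genes. Of 20 fibroblast markers, the feeder cell type, 19 were higher and 0 lower by limma, at the adjusted and unadjusted p and with normexp and loess, and Twist1 did not pass (0.06 ± 0.27). All 20 were well above background in both channels, so none was at 0. Their summed signal was 146957 and 132920 in WT and 274930 and 357680 in the overexpression channel, a ratio of 1.87 in replicate 1 and 2.69 in replicate 2. Col1a2, S100a4, Lum and Thy1 had 1.71 ± 0.46, 1.68 ± 0.25, 1.52 ± 0.22 and 1.47 ± 0.34. The ratio was larger in replicate 2 for 20 of 20 fibroblast markers and for 8 of 10 members (5 of 5 called higher). The same held for 15 of 18 LIF and STAT3 targets, against 49.6% of all genes, changed or not. Over all genes, 893 were at least 2-fold higher on replicate 2 alone and 566 on replicate 1 alone. At least 2-fold lower were 1070 on replicate 2 alone and 857 on replicate 1 alone. Larger changes in replicate 2 were thus seen over the whole array as well. The median of the markers, 0.91 in replicate 1 and 1.4 in replicate 2, lay above the ratios of Lif, Clcf1 and Il11 and below that of Il6 on both arrays. It lay below Osmr in replicate 1 (1.09) and above it in replicate 2 (1.24). The part of feeder RNA in the values of the members was not tested.

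Primitive endoderm markers, of a lineage that forms the yolk sac, were higher in 14 of 14. Their summed signal was 24790 and 28243 in WT and 184290 and 190748 in the overexpression channel. Cubn, Gata4, Foxa2 and Amn had 5.51 ± 0.055, 4.96 ± 0.17, 4.93 ± 0.13 and 4.36 ± 0.0052. The ratio was larger in replicate 2 for 5 of 14 of these markers. Markers of ESCs were all well above background in both channels, with a summed signal of 196072 and 208502 in WT and 173800 and 188110 in the overexpression channel. Of 10, 3 were higher, led by Esrrb at 0.73 ± 0.14, and 4 lower, led by Tdgf1 at -1.11 ± 0.045, Dppa5a at -0.53 ± 0.062 and Zfp42 at -0.50 ± 0.027. With normexp and median centring but no loess the list counted 6 higher and 2 lower, and the call for Tdgf1 was lost (-0.15). The part of these cells' RNA in the values of the members was not tested.

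**Figure D5:**
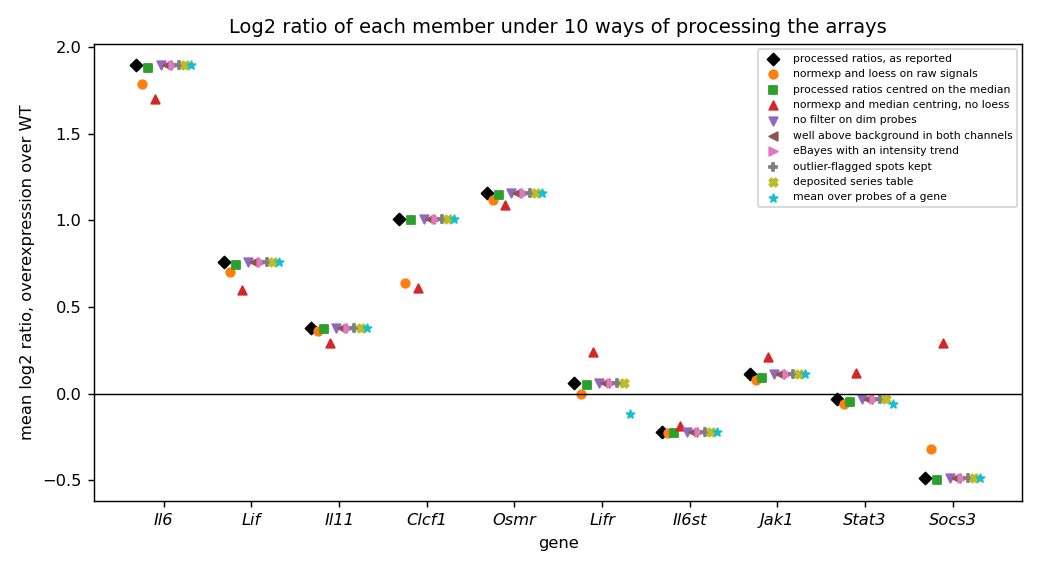
Mean log2 ratio (overexpression over WT) of each member under 10 ways of processing the arrays, with black diamonds for the processed ratios used throughout. Il6 (1.70 to 1.90), Osmr (1.09 to 1.16), Clcf1 (0.61 to 1.01), Lif (0.60 to 0.76) and Il11 (0.29 to 0.38) stay above 0, while Socs3 runs from -0.50 to 0.29 and Lifr from -0.12 to 0.24. Settings that change only the filter or the test repeat the same ratio.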

How the data were processed

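Per the file headers, the scans of both arrays, on 1 slide, were read by the authors with Agilent Feature Extraction 11.5.1.1. The deposited processed intensity values were background-subtracted and dye-normalized by that program, per the file headers, and the deposited log10 ratio is that of processed Cy5 over Cy3. The raw median intensity values deposited beside them carry no normalization. The deposited series table holds log2 ratios, which correlated at -1 with the scanner ratios, so it runs as WT over overexpression. The medians of the columns are -0.0073 and 0.0624, and whether it was centred further stays unknown.

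From these, the log2 ratio of processed signals was averaged over the spots of a probe, without the 269 and 313 spots marked as outliers. No spot was saturated. Well above background were 68.8% and 68% of probes in WT and 68.7% and 68.6% in the overexpression channel, with median raw signals of 432.5 to 462. Kept were 38401 probes well above background on both arrays in WT, in overexpression or in both, and limma 3.58.1 under R 4.3.3 tested the ratio against 0 (lmFit and eBayes, two-sided, Benjamini-Hochberg over these probes). The number of arrays limits the precision: 1 residual degree of freedom was joined by 4.75 of the prior, and the typical standard error was 0.1. Of 55681 probes, 26762 were paired with 1 symbol, 0 with several and 28919 with none, through RefSeq accessions (GRCm38.p6). A gene is read through its brightest probe. The fit was also run on simulated data with few changed probes and independent errors. That run differs from these arrays, where many probes were called, and cannot speak to a dye or culture effect. Named are all members and Hdac6, plus up to 4 genes of each list with the largest ratio past the threshold; Cntf, Ctf1, Ebi3, Itgam, Mcl1, Ptprc and Twist1 were named after their values were seen. Some genes of the lists are counted but not reported here by name. The members and lists were chosen with earlier results of these data known. Alternatives were normexp (offset 50) with loess or median centring, other filters, an intensity trend, outlier spots kept, the deposited table, the mean over probes and each array alone.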

Additional observations from a re-analysis of the deposited data

How the results depend on the processing

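Of the 10 member genes, Il6, Osmr, Clcf1 and Lif kept their direction and their call in all 10 settings, and Il6st, Jak1 and Stat3 were not called in any. For Il6, Osmr, Clcf1 and Lif, only the normexp settings and the centring of processed ratios changed the ratio. The other settings kept the processed ratio as reported, so they could change a call of these genes but not its direction. Socs3 turned to 0.29 with normexp and median centring without loess, where Lifr became called at 0.24. Il11 lost its call without the filter on dim probes (0.38, adjusted p = 0.074), where more probes were tested. The same median centring gave 4827 higher genes in place of 3116 and 7 higher and 0 lower members (0 lower at an unadjusted limma p under 0.05), and a test against a 1.2-fold change gave 1519 higher and 2376 lower genes and 4 higher and 0 lower members (1 lower at an unadjusted limma p under 0.05). The other pathway genes counted 10 lower with normexp and loess, with normexp and median centring but no loess and with an intensity trend, in place of 6. Other causes of these changes were not tested. Single arrays gave values with no test and turned no called member's direction. The test of ratios within an array is itself the paired analysis. No paired analysis was possible beyond it because each array holds 1 sample of each group. With 2 arrays of the same dye orientation, neither a dye effect nor a culture effect can be measured.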
